A study of Mus musculus with 8 samples.

Results

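The genes described here belong to the pluripotency program and to primordial germ cells, the embryonic precursors of eggs and sperm. The set holds 10 members, Pou5f1, Lin28a, Sall4, Zfp42, Dppa4, Dppa5a, Alpl, Prdm1, Tfap2c and Ifitm3, which were taken by symbol and found as 10 of the 21959 genes in the deposited expression table. The rule that names them uses no measured value, though the members were chosen with earlier results of these data known. They were followed in oocytes of mice at postnatal day 1 (P1), of wild type or of Rbpms2 knock out genotype, with 4 libraries of each. RBPMS2 is an RNA-binding protein, and the series title presents it as a regulator of early oocyte development.

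Each library came from a tube of 5 to 10 cells that were picked by mouth pipette from dissociated ovaries as putative primordial oocytes, and its mRNA was amplified for 18 cycles. The labels do not say whether the tubes of a genotype came from separate animals, so each p-value reflects only how the tubes varied, and that variation may be technical. They also do not state which part of Rbpms2 was deleted, the strain, or any control beyond the wild-type mice. Values are FPKM, read fragments scaled to exon length and to library depth, so that levels can be set side by side between genes. Depth, recovered from the steps in which the FPKM values came, was 8310774 to 14526326 reads per library. The 10 oocyte markers checked against the label summed to 3026 to 4782 FPKM in wild-type libraries and 1807 to 2932 FPKM in knockout libraries. All 10 differed between the genotypes, with Ddx4, Dazl and Sycp3 higher and Figla, Nobox, Sohlh1, Lhx8, Gdf9, Zp3 and Kit lower in knockout. Gdf9 and Zp3 reached 1 FPKM only in wild-type libraries, and the call of Dazl ended after a correction for GC content. The sum thus shows oocyte transcripts in every library and is no neutral measure.

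In the mammalian embryo OCT4, the product of Pou5f1, and SALL4 hold the pluripotent state, and LIN28A blocks the maturation of let-7 microRNAs. PRDM1 (BLIMP1) and TFAP2C then specify primordial germ cells, which keep OCT4 and tissue-nonspecific alkaline phosphatase, the product of Alpl. Female germ cells switch much of this program off as they enter meiosis, and Pou5f1, Sall4 and Lin28a are expressed again in oocytes that start to grow.

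Rbpms2 itself (ENSMUSG00000032387, chr9:65629648-65660528, plus strand, GRCm38) had 158.1, 167.4, 135.8 and 212.8 FPKM in wild-type replicates 1 to 4. Knockout replicates 1 to 4 had 38.4, 58.3, 31.0 and 42.5 FPKM. The gene was lower in each knockout library than in any wild-type library, with transcript still counted from the locus.

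Among the members, Pou5f1, Lin28a, Sall4 and Dppa5a were lower in knockout oocytes and Zfp42, Dppa4 and Alpl were higher. A gene was called changed at an adjusted p under 0.05 in limma, a linear model fitted to log2(FPKM + 1) of all 11235 genes that reached 1 FPKM in at least 4 libraries. Of all genes tested 43.4% were called, 17.7% higher and 25.6% lower in knockout. Against that background 9 members were tested, of which 3 were called higher, 4 lower and 2 neither way, while Tfap2c missed the filter. Pou5f1 passed the filter only through its wild-type libraries and Alpl only through its knockout libraries. Lin28a and Sall4 each reached 1 FPKM in all 4 wild-type libraries but in only 1 knockout library. The counts are therefore a description. For 8 members every library of 1 genotype lay above all libraries of the other, 7 of them tested members, against 39.9% of all tested genes. For each of those 8 the exact two-sided permutation p was 0.0286, the smallest that 4 against 4 libraries allow. The tubes hold several cells each, so fewer cells with a transcript and less of it per cell cannot be told apart.

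**Figure D1:**
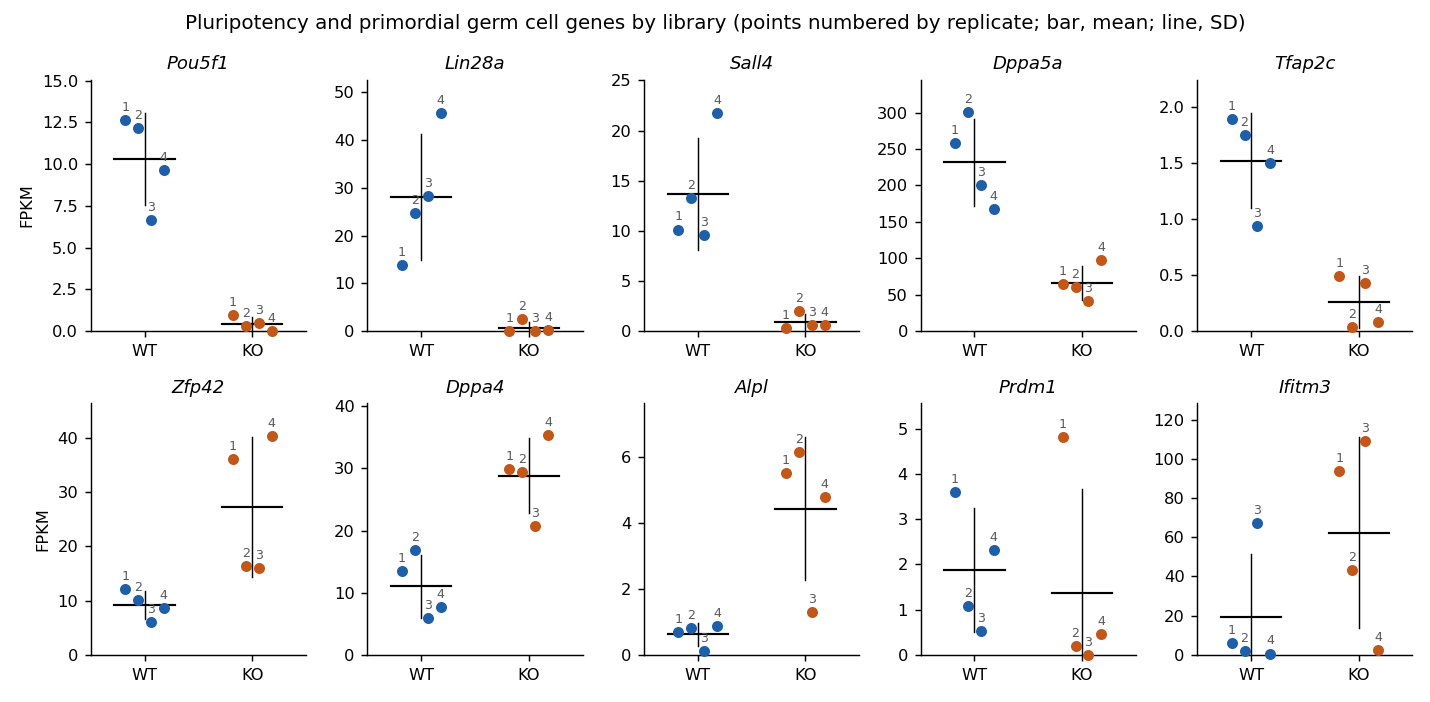
FPKM of the 10 members in each library (vertical axes from 0, points numbered by replicate, blue for wild type (WT) and orange for knockout (KO), bar for the mean, line for the SD, cut off at 0). Points of the 2 genotypes overlap only for Prdm1 and Ifitm3.

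The order of the levels differed between the genotypes. In wild type Dppa5a stood highest at 231.7 ± 59.3 FPKM (SD, n = 4). Lin28a, Ifitm3, Sall4, Dppa4, Pou5f1 and Zfp42 followed, with means from 28.1 down to 9.26 FPKM, and each of these differed from the next by less than their spread. Prdm1, Tfap2c and Alpl had means of 1.89, 1.52 and 0.623 FPKM. In knockout Dppa5a at 66.1 FPKM and Ifitm3 at 62.3 FPKM did not differ beyond their spread, nor did Dppa4 at 28.8 and Zfp42 at 27.3 FPKM below them. Alpl came next at 4.44 FPKM and Prdm1 at 1.37 FPKM. Sall4, Lin28a, Pou5f1 and Tfap2c ended the order with means from 0.916 down to 0.261 FPKM.

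Pou5f1 (ENSMUSG00000024406, chr17:35506018-35510772, plus strand) encodes OCT4, the POU-domain factor at the core of the pluripotency network. Its wild-type libraries had 12.6, 12.2, 6.64 and 9.68 FPKM, and its knockout libraries had 0.951, 0.337, 0.486 and 0 FPKM, which was 918 against 49 reads in all. Every knockout library lay under 1 FPKM, and replicate 4 had no read. The mean went from 10.3 ± 2.75 to 0.443 ± 0.395 FPKM (SD, n = 4 each), a ratio of 23.2. The log2 fold change, which here and below is the difference of mean log2(FPKM + 1) and so smaller than the log of such a ratio, was -2.97 (SE 0.31, limma adjusted p = 5.00e-05). Without knockout replicate 1 the ratio was 37.5. In wild type the mean exceeded that of 77.4% of the genes in the table, and in knockout that of 40.4%.

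Zfp42 (ENSMUSG00000051176, chr8:43295063-43306980, minus strand), also called Rex1, encodes a zinc finger protein that serves as a marker of naive pluripotency and is a known target of OCT4 in embryonal carcinoma cells. Wild-type replicates 1 to 4 had 12.2, 10.2, 6.05 and 8.69 FPKM and knockout replicates 36.2, 16.3, 16.1 and 40.4 FPKM. The lowest knockout library was above the highest wild-type library, and replicates 1 and 4 stood above the other knockout libraries. The mean was 2.94-fold higher (log2 fold change 1.38, SE 0.34, limma adjusted p = 0.00794). Zfp42 thus rose in the same libraries in which Pou5f1 fell.

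The 2 promoters are shown because these genes moved in opposite directions and because OCT4 is known to act through an octamer upstream of Zfp42. Each run is the reference sequence from 250 bases before to 50 after the annotated start (RefSeq, GRCm38.p6), 5′ to 3′ on the gene's strand. Capitals mark the octamer ATGCAAAT and the nuclear receptor hexamer AGGTCA, both searched on either strand. The windows are chr17:35505782-35506081 (plus strand) for Pou5f1 and chr8:43306960-43307259 (minus strand) for Zfp42.
Pou5f1: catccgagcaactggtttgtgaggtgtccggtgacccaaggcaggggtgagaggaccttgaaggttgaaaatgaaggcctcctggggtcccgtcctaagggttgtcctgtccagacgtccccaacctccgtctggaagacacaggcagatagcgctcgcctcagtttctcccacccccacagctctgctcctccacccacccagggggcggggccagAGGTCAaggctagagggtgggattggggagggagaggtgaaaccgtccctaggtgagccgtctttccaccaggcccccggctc
Zfp42: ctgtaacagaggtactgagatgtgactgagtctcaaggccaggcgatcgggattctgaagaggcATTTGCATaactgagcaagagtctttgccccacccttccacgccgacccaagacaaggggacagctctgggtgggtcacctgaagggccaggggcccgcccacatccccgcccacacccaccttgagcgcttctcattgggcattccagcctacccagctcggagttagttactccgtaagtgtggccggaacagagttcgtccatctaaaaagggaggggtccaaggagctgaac
The Zfp42 window held the octamer in its reverse form ATTTGCAT, at position -186 from the start, and 1.74% of 32841 annotated promoter windows of that length held an octamer. The Pou5f1 window held no octamer and 1 hexamer AGGTCA, at position -33, as did 16.3% of windows for that motif. Nuclear receptors, among them the repressor GCNF (Nr6a1), are known to act on that element of Pou5f1. Nr6a1 was measured at 5.38 ± 1.22 FPKM in wild type and 3.28 ± 0.676 FPKM in knockout (SD, n = 4 each; limma adjusted p = 0.102). Another annotated Pou5f1 window (chr17:35508557-35508856) held neither the octamer nor the hexamer. A window of Alpl, which rose, also held AGGTCA, at position -31 (chr4:137766426-137766725, minus strand). Of the 10 members, 6 had an entry in the promoter table, and no window of theirs held the NOBOX elements TAATTG or TAATTA or TAGTTG on either strand, which 17.9% of all windows held. These matches describe letters in the reference and do not show binding.

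Sall4 (ENSMUSG00000027547, chr2:168748332-168767943, minus strand) encodes a zinc finger factor that works with OCT4 in stem cells and recruits the NuRD deacetylase complex. Its level was 10.1, 13.3, 9.54 and 21.7 FPKM in wild type and 0.355, 2.05, 0.637 and 0.623 FPKM in knockout. Knockout replicate 2 stood above the other knockout libraries but far under every wild-type library. The mean was 14.9-fold lower, with 2847 reads against 263 (log2 fold change -2.94, SE 0.35, limma adjusted p = 0.000102), and 25.4-fold lower without knockout replicate 2.

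Lin28a (ENSMUSG00000050966, chr4:134003330-134018841, minus strand) showed the largest fall among the 9 tested members. Wild-type replicates 1 to 4 had 13.9, 24.8, 28.2 and 45.5 FPKM, whereas knockout replicates had 0.0642, 2.50, 0.0420 and 0.235 FPKM. Of the 159 reads in knockout, 145 were in replicate 2 and the other libraries had 3, 2 and 9, against 4114 reads in wild type. The mean was 39.6-fold lower (log2 fold change -4.18, SE 0.45, limma adjusted p = 5.98e-05). That ratio rested on knockout replicate 2, as it was 246.8 without that library.

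LIN28A binds let-7 precursors, and the uridylyltransferases TUT4 and TUT7 then mark them for decay by DIS3L2. Let-7 in turn represses transcripts that carry matches to its seed, among them those of Lin28a and Lin28b. The mature let-7a of RefSeq (GRCm38.p6) is printed with its seed, bases 2 to 8, in capitals, and 10 of the 11 let-7 family members in that table share the seed. Below it stand sites in 3′ UTRs of GENCODE M21 transcripts (GRCm38), with the seed match CTACCTC in capitals. They are all sites of the 2 members that have any, and 2 of the 4 sites of Trim71, a let-7 target described with them.
let-7a: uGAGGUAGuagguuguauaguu
Lin28a, chr4:134005186-134005210 (minus): cacagcctgttgaaCTACCTCattt
Lin28a, chr4:134004548-134004572 (minus): agatcgccacaaacCTACCTCactg
Sall4, chr2:168748937-168748961 (minus): gggctttaatttatCTACCTCaatt
Trim71, chr9:114509044-114509068 (minus): ttagtatggattttCTACCTCaatt
Trim71, chr9:114509018-114509042 (minus): tggcaaaaagttgtCTACCTCacgt
Lin28a had 2 matches, Sall4 had 1 and the other 8 members had none, where 10.0% of 10962 UTRs of tested genes held at least 1. The UTRs of Lin28a and Sall4 had 2775 and 1697 bases, beside a median of 1097.5, and the share was not adjusted for length. Trim71 had 4 matches, as did Lin28b, Hmga2 and Igf2bp1, in UTRs of 5512, 4445, 3014 and 6337 bases. Mature let-7 was not measured here.

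Genes around LIN28 and let-7 moved in both directions. Of the 19 on that list, all tested, 5 were called higher and 6 lower. The median log2 fold change on the list was 0.02, beside -0.12 over all tested genes. The call of Nras ended without wild-type replicate 1, 2 or 4 or without knockout replicate 1, 2 or 4, and that of Ccnd1 ended without wild-type replicate 1, 2 or 4 or without knockout replicate 1 or 2. The number higher was 3 to 5 in these fits, and 3 after a correction for GC content. Among the lower genes, the call of Ago2 ended without wild-type replicate 2, 3 or 4 or without knockout replicate 1, 2 or 4. The number lower was 5 to 6 over the alternative settings. Tut4 and Igf2bp1 were also among the higher genes.

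Trim71, a ubiquitin ligase and RNA-binding protein of stem cells, had 26.5, 30.9, 30.9 and 36.1 FPKM in wild type and 0.137, 2.76, 0.837 and 0.930 FPKM in knockout. It fell by 4.02 on the log2 scale (SE 0.34, limma adjusted p = 1.22e-05), and knockout replicate 2 was the highest knockout library for it as for Lin28a and Sall4. The microRNA processing enzymes also fell, Dicer1 from 34.5 ± 4.47 to 4.79 ± 0.578 FPKM (limma adjusted p = 6.69e-06) and Drosha from 64.3 ± 5.67 to 18.5 ± 3.56 FPKM (limma adjusted p = 5.89e-05; SD, n = 4 each). Dgcr8 and Xpo5, which act beside them, did not pass the test, with log2 fold changes of 0.58 and 0.02.

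Lin28b, the paralog of Lin28a, was measured at 3.95 ± 1.15 FPKM in wild type and 3.75 ± 1.75 FPKM in knockout (SD, n = 4 each), and its libraries overlapped (log2 fold change -0.12, SE 0.36, limma adjusted p = 0.802). Its level in knockout was thus above that of Lin28a, whereas in wild type it was below. Tut4 went up from 4.30 ± 1.89 to 20.7 ± 5.43 FPKM (limma adjusted p = 0.000277; SD, n = 4 each), while Tut7 and Dis3l2 were not called. Genes with let-7 seed matches went both ways. Igf2bp1, an mRNA-binding protein gene with 4 matches, rose from 0.210 to 2.43 FPKM (log2 fold change 1.50), and passed the filter only through its knockout libraries. Its relative Igf2bp2, with 1 match, fell from 15.0 to 6.16 FPKM (log2 fold change -1.31). Arid3a, with 2, fell by 1.44 on the log2 scale.

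**Figure D2:**
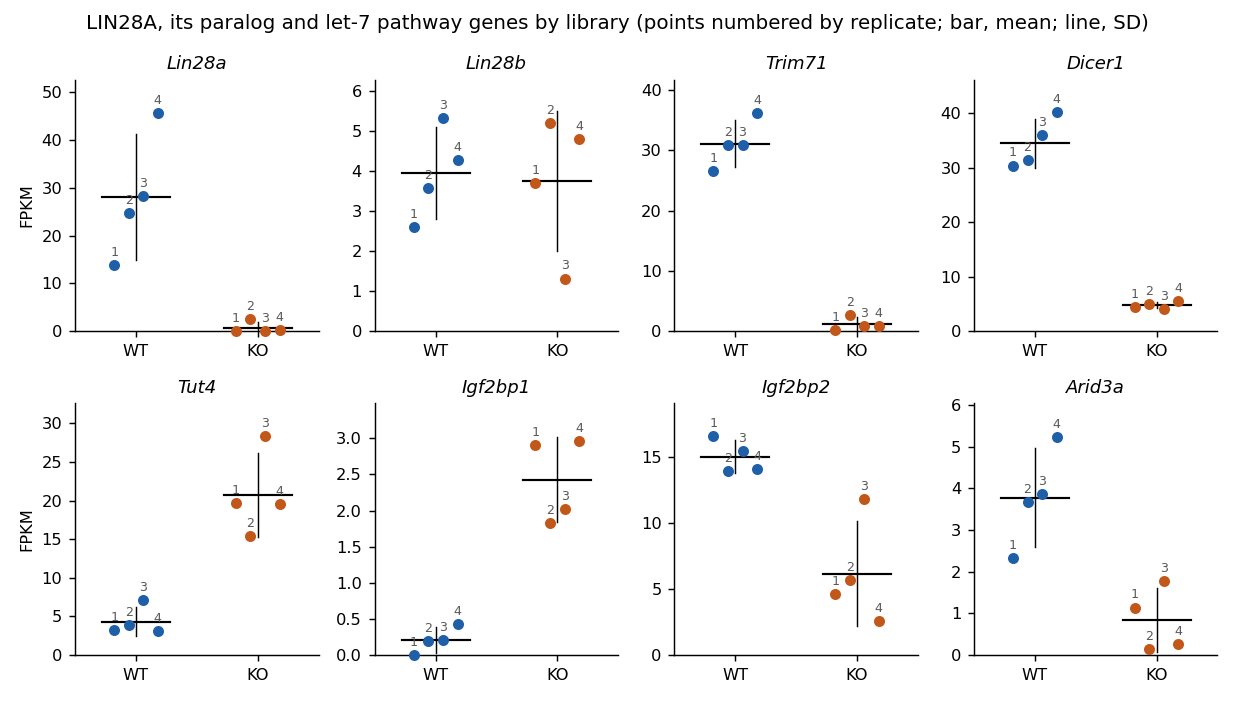
FPKM of Lin28a, its paralog Lin28b and 6 genes of the LIN28 and let-7 list in each library (vertical axes from 0, points numbered by replicate, bar for the mean, line for the SD, cut off at 0). Lin28a, Trim71, Dicer1, Igf2bp2 and Arid3a lie lower in knockout (KO) than in wild type (WT), Tut4 and Igf2bp1 lie higher, and the points of Lin28b overlap.

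Dppa5a and Dppa4, both named for developmental pluripotency association, went in opposite directions. Dppa5a (ENSMUSG00000060461, chr9:78367052-78368177, minus strand), which encodes a KH-domain RNA-binding protein, had 258.1, 300.7, 200.4 and 167.5 FPKM in wild type and 64.8, 60.1, 41.2 and 98.3 FPKM in knockout. The groups did not overlap, and the transcript stayed abundant in knockout, above 95.9% of genes. Its mean was 3.50-fold lower (log2 fold change -1.82, SE 0.27, limma adjusted p = 0.000412).

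Dppa4 (ENSMUSG00000058550, chr16:48283733-48294237, plus strand) encodes a SAP-domain chromatin protein that pairs with DPPA2. Its libraries had 13.6, 16.8, 5.99 and 7.74 FPKM in wild type and 29.8, 29.4, 20.7 and 35.3 FPKM in knockout. All knockout libraries were above all wild-type ones, and the mean was 2.61-fold higher (log2 fold change 1.38, SE 0.31, limma adjusted p = 0.00480). Its partner Dppa2 was low and scattered, at 1.44, 7.40, 0.242 and 1.67 FPKM in wild type and 1.47, 0.0281, 0 and 0 FPKM in knockout (limma adjusted p = 0.104). Annotated pseudogenes resemble Dppa5a (8 of them, at 91.4% to 96.9% identity), Dppa4 (2), Zfp42 (1) and Ifitm3 (1), and none of them was in the table, so reads of such copies cannot be told apart here.

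The germ cell specifiers Prdm1 and Tfap2c were the lowest members in wild type beside Alpl. Tfap2c (ENSMUSG00000028640, chr2:172549593-172558622, plus strand), an AP-2 factor downstream of PRDM1, had 1.89, 1.75, 0.934 and 1.50 FPKM in wild type. Its knockout libraries had 0.488, 0.0374, 0.434 and 0.0853 FPKM, 45 reads against 222. The groups did not overlap, and the mean was 5.82-fold lower. It reached 1 FPKM in 3 libraries and was therefore not tested at the set filter, while without a filter it was called lower (limma adjusted p = 0.0120).

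Prdm1 (ENSMUSG00000038151, chr10:44437177-44528501, minus strand), a zinc finger repressor that sets the germ cell fate, had 3.60, 1.08, 0.531 and 2.33 FPKM in wild type and 4.81, 0.197, 0 and 0.468 FPKM in knockout. Knockout replicate 1 was the highest of all 8 libraries, with 314 of the 355 knockout reads, and the groups overlapped. The change was not called (log2 fold change -0.56, SE 0.56, limma adjusted p = 0.440; exact permutation test, two-sided p = 0.4). Without knockout replicate 1 the ratio of wild-type to knockout means went from 1.38 to 8.50. That library also stood apart in endothelial markers, whose sum was 340.2 FPKM there against 3.79 to 7.68 FPKM in the 7 others. Of the 10 endothelial markers 2 were tested, none was called by limma at an unadjusted or adjusted p under 0.05 or by limma-voom on the recovered reads, and knockout replicate 1 had none at 0. Without that library Plvap was called lower (limma adjusted p = 0.0378). Their part in the Prdm1 value was not tested.

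At the cell surface, Alpl (ENSMUSG00000028766, chr4:137741733-137796384, minus strand) encodes the phosphatase whose activity is the classical stain for primordial germ cells. It had 0.685, 0.824, 0.118 and 0.864 FPKM in wild type and 5.51, 6.17, 1.29 and 4.80 FPKM in knockout, from 99 and 869 reads. The groups did not overlap, and knockout replicate 3 was much lower than the other knockout libraries. The mean was 7.14-fold higher (log2 fold change 1.65, SE 0.40, limma adjusted p = 0.00646).

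Ifitm3 (ENSMUSG00000025492, chr7:141009586-141010770, minus strand), also known as Fragilis, encodes a small interferon-induced membrane protein found on early germ cells and on many somatic cells. It had 6.18, 2.23, 67.3 and 0.709 FPKM in wild type and 94.0, 43.2, 109.3 and 2.62 FPKM in knockout. Wild-type replicate 3 stood with the high knockout libraries and knockout replicate 4 with the low wild-type ones. The change was not called (log2 fold change 2.32, SE 1.22, limma adjusted p = 0.148; exact permutation test, two-sided p = 0.229). It was called without wild-type replicate 3 (log2 fold change 3.40, limma adjusted p = 0.0292) and without knockout replicate 4 (log2 fold change 3.42, limma adjusted p = 0.0209), and the ratio of knockout to wild-type means went from 3.26 to 20.5 without wild-type replicate 3. Its neighbours in the family, Ifitm1 and Ifitm2, also overlapped between the genotypes, with adjusted p of 0.269 and 0.229 in limma.

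The summed level of stromal cell markers moved with Ifitm3 across libraries, though in knockout replicate 1 that sum was nearly all Sparc. The sum of 10 stromal markers was 4.66, 52.2, 140.1 and 42.3 FPKM in wild-type replicates 1 to 4 and 250.4, 453.2, 612.1 and 20.6 FPKM in knockout replicates 1 to 4, and no marker was at 0 in any library. The 4 libraries with the highest sums were those with at least 43.2 FPKM of Ifitm3, and the others had at most 6.18 FPKM. Sparc alone gave 242.3 of the 250.4 FPKM in knockout replicate 1. No other stromal marker was above 3.19 FPKM there, and Col1a1, at 0.886 FPKM, was below its level in wild-type replicates 2, 3 and 4. The place of that library among the highest sums thus rested on Sparc. Of the 10 stromal markers 0 were called by limma, 1 was higher at an unadjusted p under 0.05, and 0 were called by limma-voom on the recovered reads. Up to 3 were called higher in other settings, Lum, Pdgfra and Postn without knockout replicate 1 and Nr2f2 and Sparc without wild-type replicate 3 or knockout replicate 4. Their part in the Ifitm3 values was not tested. Alpl had 5.51, 6.17, 1.29 and 4.80 FPKM in knockout replicates 1 to 4, where the stromal sums were 250.4, 453.2, 612.1 and 20.6 FPKM. In wild type it had at most 0.864 FPKM. The part of stromal cells in the Alpl values was not tested either. When wild-type replicate 3 and knockout replicates 2 and 3 were left out, 3 members were called higher and 4 lower. That fit kept knockout replicate 1, which had the highest endothelial sum and a stromal sum of 250.4 FPKM that was mostly Sparc. The fit is thus not free of libraries rich in markers of other cells.

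**Figure D3:**
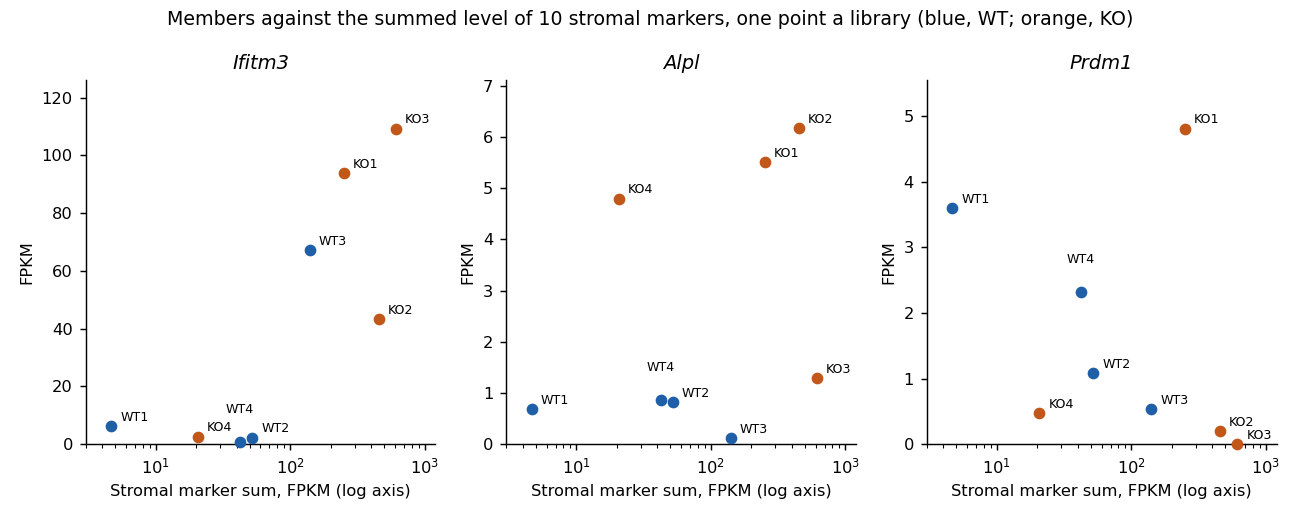
FPKM of Ifitm3, Alpl and Prdm1 (vertical axes from 0) against the summed FPKM of 10 stromal markers (horizontal log axis), with a point for each library, blue for wild type (WT) and orange for knockout (KO). Ifitm3 is at least 43.2 FPKM in the 4 libraries with the highest sums. Alpl is 5.51, 6.17, 1.29 and 4.80 FPKM in knockout replicates 1 to 4, whose sums are 250.4, 453.2, 612.1 and 20.6 FPKM. Prdm1 is highest in knockout replicate 1. Sparc gives 242.3 of the 250.4 FPKM summed in knockout replicate 1.

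Granulosa, immune, blood, smooth muscle and surface epithelial markers varied as well. Granulosa markers summed to 2.76 to 68.9 FPKM in wild type and 14.8 to 497.0 FPKM in knockout, with 1 of 12 tested markers, Krt18, called higher and 0 to 7 over the alternative settings. The call of Krt18 ended without wild-type replicate 1, 2 or 4 and without knockout replicate 2 or 3. Immune markers summed to 7.05 to 23.7 FPKM in wild type and 17.5 to 480.4 FPKM in knockout, with 2 of 6 called higher and 0 to 4 over the alternative settings. The 2 were Mrc1, from 0.0608 ± 0.0706 to 10.6 ± 5.02 FPKM (SD, n = 4 each; limma adjusted p = 6.00e-05), and Lyz2 (limma adjusted p = 0.00954), and neither overlapped between the genotypes. Both passed the filter only through their knockout libraries. Mrc1 did not follow the immune sum, as its lowest knockout value, 4.35 FPKM, was in replicate 3, where that sum was 480.4 FPKM. In wild-type replicate 1 Foxl2, Fst, Lgr5, Inha, Inhbb, Krt18 and Krt8, 7 of the 14 granulosa markers, were at 0. Erythroid markers ranged from 11.9 to 5368 FPKM without an order by genotype. Smooth muscle markers summed to at most 22.6 FPKM and surface epithelial markers to at most 66.2 FPKM in a library. Of the 2 tested on each list 1 was called lower. These were Cnn1, from 5.49 to 0.0907 FPKM (limma adjusted p = 5.11e-05), and Lrrn4, from 6.31 to 0.645 FPKM (limma adjusted p = 0.000335). Cnn1 passed the filter only through its wild-type libraries, and Acta2, the other tested smooth muscle marker, was not called (limma adjusted p = 0.792). The other surface epithelial markers had higher means in knockout. Krt19 went from 0.862 to 10.8, Upk1b from 0.493 to 5.38, Upk3b from 0.192 to 3.12 and Msln from 0.116 to 0.265 FPKM. Lrrn4 thus does not stand for its list. The part of these other cells in the members' values was not tested.

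**Figure D4:**
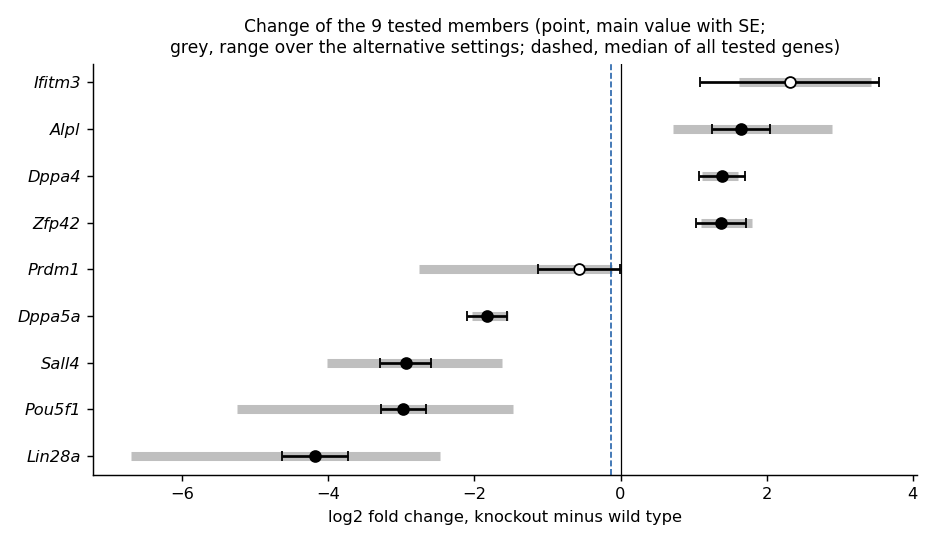
Log2 fold changes (knockout minus wild type) of the 9 tested members on the horizontal axis, with their standard errors as black lines, filled points for called and open points for uncalled members. Grey bands give the range over the alternative settings, which lies on a single side of 0 for each member, and the dashed line is the median of all tested genes at -0.12.

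Other genes of the pluripotency network were mostly low in both genotypes. Of 25 on that list 12 were tested, 3 were called lower and 0 higher by limma, with 2 higher at an unadjusted p under 0.05 and 0 by limma-voom on the recovered reads. After the GC correction 5 were called lower, as Dppa2 and Rif1 joined, and 1, Myc, was called higher. With 1 library left out 1 gene could be called higher, namely Klf5 if wild-type replicate 2 or knockout replicate 1 was left out, and Myc if knockout replicate 4 was. Median-of-ratios scaling gave 1 higher and quantile scaling 2. The median log2 fold change was -0.23. Nanog, the homeobox factor of pluripotent cells, had 1 read in each genotype over 4 libraries, and Sox2, the usual DNA-binding partner of OCT4, had no read in any of the 8, which allows at most 0.0169 FPKM over all of them at 3 reads. Tdgf1 and Fgf4 likewise had none. The 3 lower genes were Tcl1, an AKT coactivator, from 378.2 ± 89.4 to 10.1 ± 9.62 FPKM, Dppa3 (Stella), which protects DNA methylation in the zygote, from 3027 ± 601.4 to 135.5 ± 180.5 FPKM, and the nuclear receptor gene Nr0b1 (Dax1), from 6.44 ± 3.16 to 0.866 ± 0.551 FPKM (SD, n = 4 each). Without knockout replicate 2 the knockout mean of Dppa3 was 45.5 FPKM and that of Tcl1 was 5.74 FPKM. Pou5f1 and Sall4 were thus present in wild-type oocytes without detected Sox2 and with 1 read of Nanog.

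Among other primordial germ cell genes, 12 of the 18 in the table were tested, with 4 called higher and 2 lower. Their median log2 fold change was 0.42. Dppa3, on both lists, and Kit, the receptor for KIT ligand, were the lower ones. Kit had 240.4, 229.0, 171.5 and 235.2 FPKM in wild type and 15.1, 70.4, 19.3 and 24.2 FPKM in knockout (limma adjusted p = 0.000183). The higher genes were Stk31, Tex19.1, Wdr77 and Cbfa2t2, with log2 fold changes of 1.68, 2.45, 1.50 and 0.66, and the call of Cbfa2t2 ended without any library but wild-type replicate 3 or knockout replicate 3. Wdr77 encodes the partner of the arginine methyltransferase PRMT5, and Prmt5 was not called (log2 fold change -0.15, limma adjusted p = 0.623). Prdm14, which acts beside Prdm1 and Tfap2c in germ cell specification, had no read in any library.

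Chromatin partners of OCT4 and SALL4 were all expressed, and of 15 tested 4 were called higher and 5 lower. The median log2 fold change there was -0.21. Among NuRD subunits, Mta1 fell from 49.3 ± 23.1 to 8.49 ± 1.27 FPKM and Gatad2a from 72.9 ± 19.2 to 24.3 ± 1.72 FPKM. Mta2 rose from 4.50 ± 1.12 to 13.2 ± 3.04 FPKM and Rbbp7 from 141.2 ± 9.09 to 270.1 ± 45.1 FPKM (SD, n = 4 each). In wild type Mta1 was thus above Mta2, and in knockout Mta2 had the higher mean. Of the other called subunits Hdac1 and Rbbp4 were higher and Mbd3 lower. After the GC correction Mbd3 (limma adjusted p of at least 0.261) and Rbbp4 (limma adjusted p of at least 0.0522) were no longer called. Arid1a, of another remodelling complex and counted among the 5 lower, lost its call there too, and also when wild-type replicate 3 or 4 was left out or any knockout library but replicate 3.

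Paralogs of the members were mostly too low to test, with 8 of 24 in the table tested, 3 called lower and 0 higher by limma, 0 higher at an unadjusted p under 0.05 and 0 by limma-voom. Without knockout replicate 4, Ifitm2 was called higher. The 3 lower ones were Ooep and Khdc3, which share the KH-domain family with Dppa5a and belong to the subcortical maternal complex, and Pou2f1, the widely expressed relative of Pou5f1. Khdc3 had 6.70, 11.5, 15.7 and 31.8 FPKM in wild type and no read in any knockout library, at least 534.7-fold lower at a floor of 3 reads over the knockout group. It thus passed the filter only through its wild-type libraries. Ooep fell from 286.8 ± 129.0 to 10.8 ± 5.16 FPKM and Pou2f1 from 8.27 ± 0.232 to 2.65 ± 0.644 FPKM (SD, n = 4 each). Sall1, Sall2 and Sall3 were too low to test. Sall1 was at 0 FPKM in all wild-type libraries and at 0.0199 to 1.19 FPKM in knockout, and Sall2 overlapped between the genotypes. Sall3 had 1.31, 0.719, 2.05 and 0.421 FPKM in wild type and 0, 0, 0 and 0.163 FPKM in knockout, from 325 and 12 reads, without overlap.

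The profiles most like each member over the 8 libraries, by Pearson r of log2(FPKM + 1), hold the genotype difference and are given as a description. Jag1 (r = 0.997) and Cltb (r = 0.996) were nearest to Pou5f1, Glrx5 (r = 0.996) and Wfs1 to Lin28a, and Il17rb (r = 0.991) and Chdh to Sall4. Zfp42 was nearest to Ddx4, the germ cell helicase gene (r = 0.988), and Macrod2, and Dppa4 to Rnf138 (r = 0.991) and Arpc1a. Ddx4 had 84.2, 77.8, 54.0 and 59.9 FPKM in wild type and 232.5, 114.4, 108.0 and 332.0 FPKM in knockout, with replicates 1 and 4 the highest in knockout as for Zfp42. Gtse1 and Svip were nearest to Dppa5a, and Asf1b and Rtn3 to Alpl. The nearest profiles of Prdm1 (Anapc15, r = 0.944, and Pik3c3) and Ifitm3 (Zfp354c, r = 0.974, and Tfpi) were less close.

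RNA features that the choice of members did not use differed widely among them. RBPMS proteins are known to bind RNA with pairs of the triplet CAC, so CAC was counted on the sense strand of the 3′ UTR. A median of 14.6 CAC per kilobase was found over 10962 UTRs of tested genes. Members ranged from 5.43 per kilobase in Dppa5a and 5.63 in Zfp42 through 14.7 in Sall4 and 14.8 in Lin28a to 22.6 in Pou5f1, 29.8 in Alpl and 43.2 in Ifitm3. Pairs of CAC spaced by 1 to 12 bases were in 7 of 10 member UTRs, against 76.4% of all UTRs. The number was 6 in Sall4, 5 in Lin28a, 4 in Alpl and 0 in Pou5f1, Dppa5a and Prdm1. These counts were not adjusted for UTR length, whose median was 1097.5 bases. The UTR had 221 bases in Pou5f1, 184 in Dppa5a and 139 in Ifitm3, against 1697 in Sall4, 2490 in Prdm1 and 2775 in Lin28a. The density of Ifitm3 thus rests on 6 triplets. The pairs below are 1 each from 2 members that fell and 2 that rose (GENCODE M21, GRCm38). Capitals mark only the triplets of the pair, and any adjoining or overlapping CAC is left in lower case.
Lin28a, chr4:134005555-134005570 (minus): cccaCACctCACtccc
Sall4, chr2:168749216-168749233 (minus): ctccCACaaacCACcttc
Alpl, chr4:137742360-137742382 (minus): ccacCACcgggcagccCACactc
Dppa4, chr16:48293764-48293778 (plus): gcgtCACtCACtctt
Called members of either direction lay both above and below the median, and binding was not measured.

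Transcript GC content moved with the change over all genes. With the tested genes cut into 10 equal classes by GC, the median log2 fold change went from 0.52 in the class of lowest GC to -0.89 in the highest. Pou5f1 at 57.6% GC and Alpl at 56.5% were in the same class, whose median was -0.59, and moved in opposite directions. After each library's trend against GC was removed the log2 fold change was -2.43 for Pou5f1, 2.12 for Alpl and 1.14 for Zfp42 (limma adjusted p = 0.0182), and all 7 called members kept their calls. Transcripts annotated on the opposite strand overlap Pou5f1 (Gm19553), Lin28a (Gm13061) and Sall4 (Gm14261), are not in the table, and cannot be told apart from them if strand was not used in counting, which is not given in the sources used here.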

How the data were processed

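RNA of P1 oocytes was sequenced in 8 libraries, 4 wild type and 4 Rbpms2 knock out, grouped by the genotype in the labels. The deposited values are FPKM per gene, which the authors made with cutadapt, HISAT2 and HTSeq on GRCm38 (mm10), per the submitters' processing notes. The versions of these tools are not stated in the notes, nor is an annotation release. Of the 21959 genes, 21851 matched a symbol and 21902 an exon length in GENCODE M21. Multiplied by exon length, 97.4% to 97.6% of values per library were whole reads within 0.02, and these reads were used for depth, floors and an added limma-voom fit. Reads of amplified RNA are not independent molecules, so floors cover counting error only.

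Genes with 1 FPKM or more in at least 4 libraries were fitted with limma 3.58.1 (R 4.3.3) on log2(FPKM + 1), with genotype as the only term, an eBayes trend and Benjamini-Hochberg adjustment over all 11235. On that scale the change of a gene of low level is understated. Ratios are of mean FPKM. Every library pair of a genotype differed beyond counting noise (chi-square over its degrees of freedom, 33.65 or more). Deviations of same-numbered libraries correlated at 0.19, 0.02, 0.36 and -0.05, so the numbers were not taken as pairs.

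The members, pathway lists and marker lists were chosen with earlier results of these data known. By rule the text names all members, the 3 called genes of each pathway list with the smallest p, paralogs, and the 2 most similar profiles per member, and further list genes were named after their values were seen. Alternatives were pseudocounts of 0.1 and 5, no filter or 5 FPKM, quantile or median-of-ratios scaling, equal totals, a replicate block, a GC correction (loess, span 0.5) with and without the block, eBayes without trend or robust, and libraries left out. The limma-voom fit was chosen after seeing the data. Python 3.11.15 with pandas 2.3.3, numpy 2.4.6 and matplotlib 3.10.9 made the tables and figures. Promoter and microRNA sequences are from RefSeq and 3′ UTRs from the longest coding transcript per gene.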

Additional observations from a re-analysis of the deposited data

Results flagged for a closer look

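Of 22 groups of 4 libraries examined, 4 had a single library far from the other 3, its gap to the nearest of them, as a share of the range of the group, being above the 95% critical value of Dixon's test. Chance marks about 1 in 20 groups in this way if their values are normally distributed. That was not tested for these FPKM, some of them near 0, and the groups share libraries. The number of marked groups is therefore a description. Lin28a was at 2.50 FPKM in knockout replicate 2 against 0.0420 to 0.235 FPKM in the other knockout libraries. Sall4 was at 2.05 FPKM in the same library against 0.355 to 0.637 FPKM. Trim71, Tcl1, Dppa3, Kit and Rbpms2 were also highest in knockout replicate 2 among knockout libraries, whereas Pou5f1 and Tfap2c were highest in knockout replicate 1. Prdm1 was at 4.81 FPKM in knockout replicate 1 against 0 to 0.469 FPKM in the other knockout libraries, and Ifitm3 was at 67.3 FPKM in wild-type replicate 3 against 0.709 to 6.18 FPKM in the other wild-type libraries.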

How the results depend on the processing

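Over 22 alternative settings the number of members called lower was 4, or 5 without a filter, where Tfap2c joined. The number called higher was 3 in most settings, 2 at a filter of 5 FPKM, which removed Alpl, and 4 where Ifitm3 joined. With 1 library left out it was 3 to 4, and 4 members were lower each time. No fitted log2 fold change of a member changed direction in any setting, and Prdm1 was called in none, though its ratio of knockout to wild-type means went from 0.726 to 1.04 without wild-type replicate 1. Log2 fold changes ranged with the pseudocount from -6.10 to -2.47 for Lin28a, from -4.64 to -1.47 for Pou5f1, from -3.94 to -1.62 for Sall4 and from 0.72 to 2.66 for Alpl, and by limma-voom they were -6.70, -5.25, -4.02 and 2.89. Of all tested genes, 3773 to 5034 were called, and 3909 to 4960 with 1 library left out, against 4871.

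With the replicate number as a block 4 members were called higher, 4 lower and 5034 genes in all, and Ifitm3 was called (limma adjusted p = 0.00889). It was also called with the block and the GC correction together (limma adjusted p = 0.00742). Ifitm1 was called higher in both fits and Ifitm2 in the latter. Libraries with the same number share only that number, so this is no paired analysis by design, and not every library correlated best with its own number. Depth limits Prdm1, Tfap2c and the knockout levels of Pou5f1 and Lin28a, which rest on few reads.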
